A study of Mus musculus with 20 samples.

Results

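The genes of the major histocompatibility complex (MHC) and of antigen presentation were examined in mouse liver. A gene belonged to this group if its symbol on the array platform began with H2-, or was one of B2m, Tap1, Tap2, Tapbp and Ciita. This gave 40 of the 19505 gene symbols on the array, each represented by 1 probe set. They comprised 29 class I genes (the H2 class I chains, the light chain B2m and the peptide-loading genes Tap1, Tap2 and Tapbp), 9 class II genes (the H2-A, H2-E, H2-DM and H2-O chains) and 2 others (Ciita and H2-Ke6, a hydroxysteroid dehydrogenase gene that only shares the prefix). H2-T-ps, by its symbol a pseudogene of the T region, was counted with class I. Cd74 and Nlrc5, which the choice also covered, were not analysed here. By RefSeq annotation 38 of the 40 lie on chromosome 17, B2m lies on chromosome 2 and Ciita on chromosome 16.

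The study asked how fasting changes liver gene expression with and without Mcl1, an anti-apoptotic gene of the BCL2 family. Total liver RNA of 20 mice was hybridised to 20 Affymetrix arrays, and each of 4 groups held 5 biological replicates. Fed WT and fed Mcl1(L-/-) mice had food at all times. Fasted WT and fasted Mcl1(L-/-) mice were kept singly on wire floors with no food for 48 h, and all mice had water. If the fed mice were housed otherwise, effects of the fast and of this housing cannot be told apart. The Mcl1(L-/-) genotype was made by giving Mcl1(F/F) mice AAV-LP1-Cre, an adeno-associated virus that carries Cre recombinase, so that deletion was directed to the liver. Whether the WT mice carried the floxed allele or received a virus, and the strain, age and sex of the mice, are not stated in the labels, so effects of the virus or of Cre and of the loss of Mcl1 cannot be told apart. The whole liver was sampled, so each value mixes hepatocytes with the other cells of the organ.

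MHC class I molecules are heavy chains paired with B2m that display peptides from the cell's own proteins on nearly all nucleated cells. The peptides are cut by the proteasome, carried into the endoplasmic reticulum by Tap1 and Tap2 and loaded with the help of Tapbp. Class II molecules are pairs of alpha and beta chains that display peptides from ingested proteins. They are found mainly on dendritic cells, B cells and macrophages, which in liver include the resident Kupffer cells, and their genes are switched on by the transactivator Ciita.

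Signals are log2 values in which a difference of 1 is a 2-fold change, and a gene was called changed at a limma adjusted p under 0.05 over all 22206 probe sets. Array medians ran from 3.35 to 3.47. Mcl1 itself was lower in every Mcl1(L-/-) array (5.83 to 6.50) than in every WT array (7.16 to 7.60), with differences of -1.34 with food (adjusted p = 5.07e-07) and -1.14 after fasting (adjusted p = 4.47e-06). On the first principal component all fed arrays lay below all fasted arrays. Fasted Mcl1(L-/-) replicates 3 and 4, at 18.3 and 27, lay nearer to the fasted WT arrays, at 6.61 to 18.4, than the other fasted Mcl1(L-/-) arrays did, at 42.1 to 46.8.

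After 48 h without food some MHC transcripts were lower in the liver, and no member was called higher in either genotype. In WT livers limma called 8 of the 40 members lower and 0 higher. Among all probe sets 3.68% were called lower and 3.1% higher in this comparison. In Mcl1(L-/-) livers 11 of 40 members were called lower and 0 higher, against 6.25% and 8.2% of all probe sets. At an unadjusted p under 0.05, 13 members were lower and 1 higher in WT, and 14 lower and 0 higher in Mcl1(L-/-) livers. The share of all probe sets under this unadjusted threshold was not counted, here or for the unadjusted counts that follow. Some genes pass it by chance, so these counts alone show no excess. In bulk tissue fewer cells of a type and less RNA per cell cannot be told apart, and this holds for each value that follows.

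Many members are barely expressed in liver, and every called member but H2-DMb2 was among those with signal. The mean over all arrays was above the median of all values, 3.41, for 22 members, of which 17 were class I and 4 class II. Among these bright class I genes 7 of 17 were called lower in WT and 6 of 17 in Mcl1(L-/-) livers. Among the bright class II genes 1 of 4 was called lower in WT and 4 of 4 in Mcl1(L-/-) livers. Among all probe sets above that median 6.82% were called lower in WT and 11.2% in Mcl1(L-/-) livers.

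**Figure D1:**
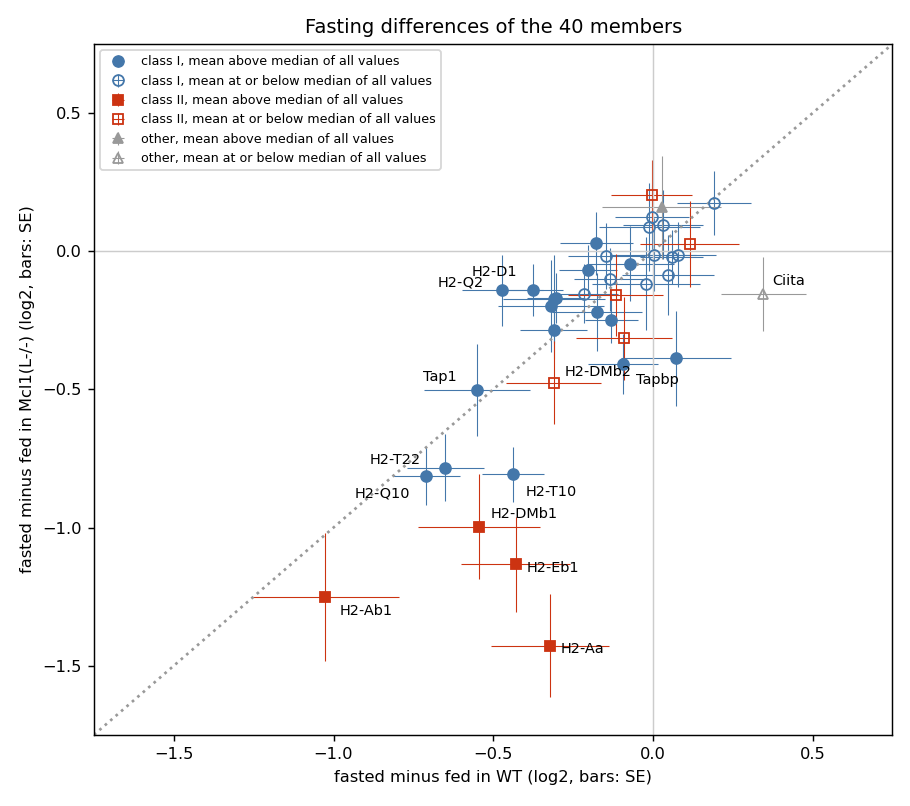
Difference between fasted and fed livers for each of the 40 members, in WT (x axis) and in Mcl1(L-/-) mice (y axis), on the log2 scale with standard errors. Circles are class I genes, squares class II genes and triangles the others. Filled symbols have a mean above the median of all values, and the dotted line marks equal differences. Among the class II squares H2-Aa lies farthest below the line, at -0.32 in WT and -1.43 in Mcl1(L-/-) livers.

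Class II genes held the largest difference in each genotype, H2-Ab1 in WT and H2-Aa in Mcl1(L-/-) livers. H2-Aa and H2-Ab1 encode the alpha and beta chains of the I-A molecule, and H2-Eb1 encodes the beta chain of I-E. H2-DMb1 encodes the beta chain of the DM molecule, which exchanges the peptides bound to class II. The bases just before the start of the gene are shown for 3 of these 4, because class II promoters are known for shared boxes that members called together may carry. The RefSeq promoter table (GRCm38.p6) held a window for 32 of the 40 members, and none for H2-Ab1. Each sequence below is the 200 bases before the most upstream annotated start, 5′ to 3′ on the gene's strand. Capitals mark matches to the Y box (ATTGG, or CCAAT on the other strand) and the X box (AACNGATGA). H2-Aa lies on the minus strand, chr17:34287824-34288023. H2-Eb1 lies on the plus strand, chr17:34305667-34305866. H2-DMb1 lies on the plus strand, chr17:34152991-34153190.
H2-Aa: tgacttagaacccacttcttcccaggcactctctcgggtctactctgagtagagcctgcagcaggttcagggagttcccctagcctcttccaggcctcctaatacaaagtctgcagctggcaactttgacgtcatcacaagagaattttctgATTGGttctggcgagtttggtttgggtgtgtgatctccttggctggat
H2-Eb1: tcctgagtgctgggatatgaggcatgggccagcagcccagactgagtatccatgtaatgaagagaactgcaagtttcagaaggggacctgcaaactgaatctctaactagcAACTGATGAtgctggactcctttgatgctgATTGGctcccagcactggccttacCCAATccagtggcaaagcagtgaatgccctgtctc
H2-DMb1: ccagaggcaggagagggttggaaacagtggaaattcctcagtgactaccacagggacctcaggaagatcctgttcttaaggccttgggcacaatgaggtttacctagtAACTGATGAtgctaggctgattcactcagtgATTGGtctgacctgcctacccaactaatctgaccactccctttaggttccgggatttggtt

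Both strands were searched, and no 2 matches overlapped in the printed windows. The Y box was found in 7 of 8 class II windows, 19 of 23 class I windows and 29.3% of all 32851 promoter windows of this length. The X box was found in 3 of 8 class II windows (H2-Eb1, H2-DMb1 and H2-DMb2), in 0 of 23 class I windows and in 0.42% of all windows. For H2-Aa only the Y box letters were found, and a variant of the X box would not be seen by this search. Aligned end to end, the windows of H2-Eb1 and H2-DMb1 were 65.4% identical over 179 columns, and those of H2-Aa and H2-Eb1 56.1% over 180. Gapped positions were not counted and no unrelated windows were aligned, so these 2 values alone show no relatedness. A match describes the sequence and shows no binding.

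H2-Aa, the alpha chain of I-A, differed most between fed and fasted Mcl1(L-/-) livers. For Mcl1(L-/-) livers the values were 5.92, 6.76, 6.86, 6.56 and 7.07 with food and 5.13, 5.26, 4.90, 5.48 and 5.26 without. Every fasted array lay below every fed array, and fed replicate 1 was the lowest of its group. The fall was 2.69-fold (log2 -1.43, SE 0.19, limma adjusted p = 6.98e-06). With food the WT arrays gave 6.36, 6.18, 5.69, 6.04 and 5.92, against 6.06, 5.51, 6.09, 5.58 and 5.33 after the fast. The WT groups overlapped, since fasted WT replicates 1 and 3 lay among the fed values, and the WT difference of -0.32 was not called (limma adjusted p = 0.404).

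H2-Ab1, the partner chain of H2-Aa, was called lower after fasting in both genotypes. WT livers measured 5.46, 5.46, 5.41, 5.53 and 5.28 when fed and 5.30, 3.97, 5.03, 3.86 and 3.84 when fasted. Fasted WT replicates 1 and 3 lay near the fed level and the other 3 more than 1 unit lower, which gave this group an SD of 0.71 against 0.09 in fed WT. The WT difference was 2.04-fold lower (log2 -1.03, SE 0.23, limma adjusted p = 0.00606). Mcl1(L-/-) arrays read 5.49, 6.10, 5.83, 5.77 and 6.13 when fed and 4.49, 4.48, 4.21, 5.10 and 4.78 when fasted. These groups did not overlap, and the fall was 2.38-fold (log2 -1.25, SE 0.23, limma adjusted p = 0.000422).

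H2-Eb1 was called lower in Mcl1(L-/-) livers. Fed and fasted Mcl1(L-/-) replicates 1 to 5 lay at 5.54, 5.59, 5.73, 6.10 and 5.87 and at 4.65, 4.45, 4.89, 4.87 and 4.31. All fasted arrays lay below all fed arrays, and the fall was 2.19-fold (log2 -1.13, SE 0.17, limma adjusted p = 4.65e-05). In WT, replicates 1 to 5 read 5.49, 5.60, 5.03, 5.54 and 4.92 fed and 5.32, 4.76, 4.34, 4.99 and 5.03 fasted. These groups overlapped, with a difference of -0.43 (limma adjusted p = 0.168).

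H2-DMb1 was also called lower in Mcl1(L-/-) livers. For Mcl1(L-/-) livers the values were 4.72, 5.25, 5.12, 5.29 and 5.27 with food and 4.04, 3.57, 3.91, 4.71 and 4.43 without. The gap between the groups was narrow, between fasted replicate 4 and fed replicate 1, and the fall was 1.996-fold (log2 -0.997, SE 0.19, limma adjusted p = 0.000599). With food the WT arrays gave 4.46, 5.01, 4.43, 5.04 and 4.44, against 4.45, 3.81, 3.84, 4.17 and 4.40 after the fast. Fasted WT replicate 1 lay among the fed values, and the difference of -0.54 was not called (limma adjusted p = 0.0999).

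The remaining class II members were at or below the median of all values. H2-DMb2, a second DM beta chain, was called lower in Mcl1(L-/-) livers, from 2.67 to 2.98 in the fed arrays to 2.22 to 2.50 in the fasted arrays (log2 -0.48, SE 0.15, limma adjusted p = 0.033). That call was lost under 8 of 28 alternatives, among them centring each array on its median, where the highest adjusted p was 0.0825. H2-DMa, H2-Eb2, H2-Oa and H2-Ob were not called in any comparison, with fasting differences from -0.32 to 0.20. H2-Oa and H2-Ob encode the DO molecule, an inhibitor of DM. Ciita, whose protein switches class II genes on, was dim as well, at 2.42 to 3.03 in fed WT, 2.78 to 3.15 in fasted WT, 2.74 to 2.94 in fed Mcl1(L-/-) and 2.22 to 3.04 in fasted Mcl1(L-/-) livers. Its fasting differences were 0.35 in WT (limma adjusted p = 0.144) and -0.15 in Mcl1(L-/-) livers (limma adjusted p = 0.565), and its groups overlapped.

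**Figure D2:**
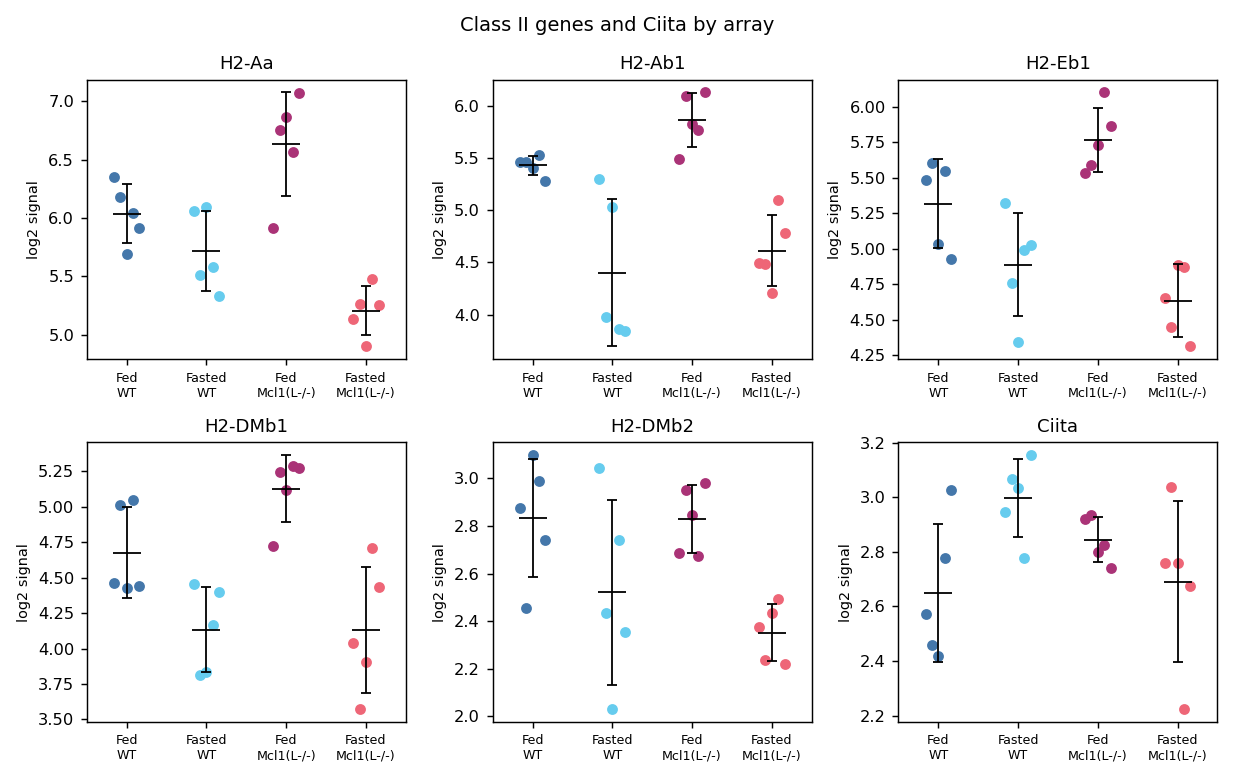
Log2 signal of class II genes and Ciita in each of the 20 arrays, by group, with the mean and standard deviation of 5 arrays. Each panel has its own scale. In Mcl1(L-/-) livers the fasted arrays of H2-Aa, at 4.90 to 5.48, all lie below the fed arrays, at 5.92 to 7.07. The fasted WT arrays of H2-Ab1 spread from 3.84 to 5.30.

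Class I transcripts are far more widely expressed, and the fasting differences of the bright class I genes ran from -0.71 to 0.07 in WT and from -0.81 to 0.03 in Mcl1(L-/-) livers. H2-K1 and H2-D1 encode the classical heavy chains, which present peptides to CD8 T cells. H2-Q10 encodes a class I protein secreted by the liver. The windows before these 3 genes are shown because the genes are related in sequence and H2-Q10 differs from the others at known class I elements. Capitals mark the kappa B element (GGGATTCCC), the core of the interferon-stimulated response element (ISRE, TTTCACTT) and the Y box. H2-K1 lies on the minus strand, chr17:34000348-34000547. H2-D1 lies on the plus strand, chr17:35262894-35263093. H2-Q10 lies on the plus strand, chr17:35469889-35470088.
H2-K1: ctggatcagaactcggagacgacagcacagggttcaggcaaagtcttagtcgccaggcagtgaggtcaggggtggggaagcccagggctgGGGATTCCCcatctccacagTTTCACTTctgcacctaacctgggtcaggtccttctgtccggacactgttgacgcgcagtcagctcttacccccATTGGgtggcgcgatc
H2-D1: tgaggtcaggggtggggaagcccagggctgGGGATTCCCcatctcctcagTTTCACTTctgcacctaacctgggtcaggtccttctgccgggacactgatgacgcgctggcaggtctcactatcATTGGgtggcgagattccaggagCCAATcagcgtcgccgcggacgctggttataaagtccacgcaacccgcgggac
H2-Q10: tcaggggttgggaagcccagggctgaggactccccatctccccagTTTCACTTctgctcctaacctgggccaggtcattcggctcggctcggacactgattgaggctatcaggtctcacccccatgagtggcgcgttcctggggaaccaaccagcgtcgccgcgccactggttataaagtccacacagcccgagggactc

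The windows of H2-D1 and H2-Q10 were 86.4% identical over 191 aligned columns, and those of H2-K1 and H2-D1 91.4% over 140. H2-K1 and H2-D1 each held a kappa B match, an ISRE core and a Y box, and H2-Q10 held only the ISRE core. The kappa B letters were found in 2 of 23 class I windows and 0.213% of all windows. The ISRE core was found in 7 of 23 class I windows, 0 of 8 class II windows and 1.03% of all windows. These windows lie before the annotated starts, and no transcript sequences were compared. Which transcript parts the probes cover is unknown here, and related class I genes may share part of their signal, which was not tested.

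H2-Q10 was called lower after fasting in both genotypes and at a similar size. WT livers measured 10.39, 10.39, 10.39, 10.28 and 10.31 when fed and 9.82, 9.62, 9.62, 9.35 and 9.81 when fasted. The fall in WT was 1.64-fold (log2 -0.71, SE 0.10, limma adjusted p = 7.4e-05), with every fasted array below every fed array. Mcl1(L-/-) arrays read 10.38, 10.54, 10.46, 10.56 and 10.47 when fed and 9.76, 9.48, 9.65, 9.94 and 9.53 when fasted. The groups again did not overlap, and the fall was 1.76-fold (log2 -0.81, SE 0.10, limma adjusted p = 5.2e-06).

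H2-T10 and H2-T22 encode non-classical class I proteins that some gamma delta T cells recognise, and both fell in both genotypes. For H2-T10 in WT, replicates 1 to 5 read 7.65, 7.86, 7.54, 7.75 and 7.70 fed and 7.46, 7.38, 7.33, 6.95 and 7.19 fasted, with no overlap. The fall in WT was 1.36-fold (log2 -0.44, SE 0.10, limma adjusted p = 0.00556). Fed and fasted Mcl1(L-/-) replicates 1 to 5 lay at 7.84, 7.82, 7.88, 7.89 and 7.96 and at 7.10, 7.10, 7.04, 7.15 and 6.95. Both groups were tight and far apart, and the fall was 1.75-fold (log2 -0.81, SE 0.10, limma adjusted p = 2.53e-06).

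For H2-T22 with food the WT arrays gave 6.05, 6.15, 6.28, 6.29 and 6.31, against 5.58, 5.48, 5.61, 5.26 and 5.90 after the fast. For Mcl1(L-/-) livers the values were 5.97, 6.14, 6.28, 6.34 and 6.21 with food and 5.05, 5.49, 5.45, 5.67 and 5.37 without. In each genotype all fasted arrays lay below all fed arrays. The falls were 1.57-fold in WT (log2 -0.65, SE 0.12, limma adjusted p = 0.00109) and 1.72-fold in Mcl1(L-/-) livers (log2 -0.78, SE 0.12, limma adjusted p = 5.65e-05).

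The classical heavy chains fell in WT by less. For H2-K1 WT livers measured 10.08, 10.15, 10.16, 10.12 and 10.16 when fed and 9.86, 9.77, 9.92, 9.76 and 9.84 when fasted. The groups did not overlap, and the difference was 1.23-fold lower (log2 -0.30, SE 0.09, limma adjusted p = 0.0423). This call was lost under 14 of 29 alternatives, among them leaving out any 1 of the 10 WT arrays, where the highest adjusted p was 0.0942. Mcl1(L-/-) arrays read 10.22, 10.05, 10.22, 10.20 and 10.27 when fed and 10.24, 10.003, 9.89, 9.83 and 10.14 when fasted. Fasted Mcl1(L-/-) replicates 1 and 5 lay among the fed values, and the difference of -0.17 was not called (limma adjusted p = 0.265).

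For H2-D1 in WT, replicates 1 to 5 read 8.58, 8.82, 8.58, 8.54 and 8.66 fed and 8.39, 8.14, 8.32, 8.12 and 8.33 fasted. Again the WT groups did not overlap, and the fall was 1.298-fold (log2 -0.38, SE 0.10, limma adjusted p = 0.0147, and 0.0515 without fed WT replicate 2). Fed and fasted Mcl1(L-/-) replicates 1 to 5 lay at 8.72, 8.67, 8.78, 8.84 and 8.65 and at 8.65, 8.74, 8.37, 8.56 and 8.64. These overlapped, with a difference of -0.14 (limma adjusted p = 0.417). H2-Q2, a non-classical class I gene, fell in WT from 4.94 to 5.21 in the fed arrays to 4.44 to 4.82 in the fasted arrays (log2 -0.47, SE 0.13, limma adjusted p = 0.0247). The H2-Q2 call was lost under 6 of 29 alternatives (adjusted p up to 0.0742), and its Mcl1(L-/-) difference was -0.14 (limma adjusted p = 0.591).

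**Figure D3:**
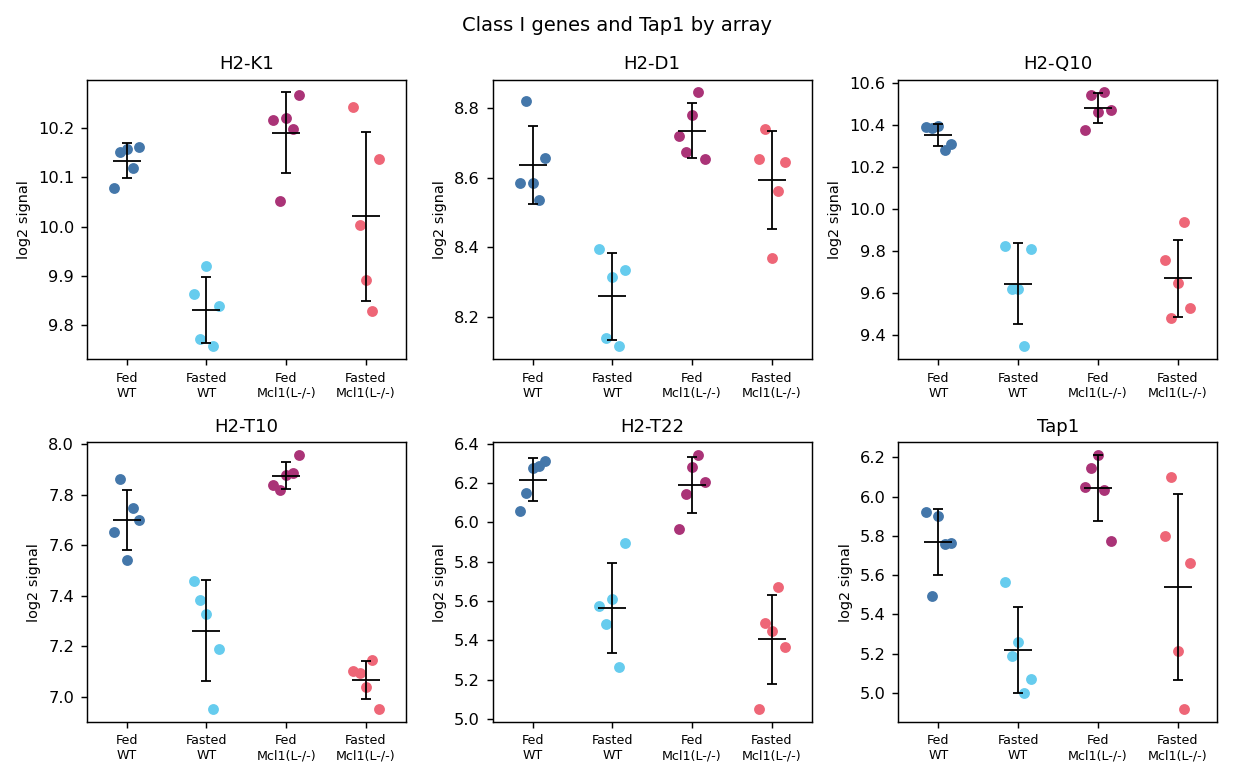
Log2 signal of H2-K1, H2-D1, H2-Q10, H2-T10, H2-T22 and Tap1 in each of the 20 arrays, by group, with the mean and standard deviation of 5 arrays. Each panel has its own scale, which does not start at 0. For H2-Q10, H2-T10 and H2-T22 the fasted arrays lie below the fed arrays of the same genotype throughout, and for H2-K1 and H2-D1 this is so in WT.

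Of the light chain and the 3 peptide-loading genes, 1 of 4 was called lower in WT and 3 of 4 in Mcl1(L-/-) livers. Tap1, a subunit of the peptide transporter, was called lower in both genotypes. With food the WT arrays gave 5.92, 5.50, 5.90, 5.76 and 5.76, against 5.57, 5.19, 5.26, 5.002 and 5.07 after the fast, which overlapped only at fed replicate 2 and fasted replicate 1 (log2 -0.55, SE 0.17, limma adjusted p = 0.0478). In Mcl1(L-/-) livers the values were 6.05, 6.15, 6.21, 6.03 and 5.77 with food and 5.80, 6.10, 5.21, 4.92 and 5.66 without. Fasted Mcl1(L-/-) replicates 3 and 4 were the low arrays, and the difference of -0.50 (SE 0.17, limma adjusted p = 0.0453) was -0.19 without both of them (adjusted p = 0.476). The Tap1 call was lost under 15 of 29 alternatives in WT (adjusted p up to 0.118) and 18 of 29 in Mcl1(L-/-) livers.

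Tap2, the other transporter subunit, was not called, at 0.07 in WT (limma adjusted p = 0.903) and -0.39 in Mcl1(L-/-) livers (limma adjusted p = 0.163). Its fed and fasted arrays overlapped in both genotypes. Tapbp, the tapasin gene, had fed Mcl1(L-/-) values of 7.90, 7.62, 7.88, 7.47 and 7.85 and fasted values of 7.37, 7.38, 7.25, 7.19 and 7.50. These groups overlapped slightly, at fed replicate 4 and fasted replicate 5. It fell 1.33-fold there (log2 -0.41, SE 0.11, limma adjusted p = 0.0117), and the adjusted p was 0.0899 without fasted Mcl1(L-/-) replicates 3 and 4. In WT its groups overlapped too, with a difference of -0.09 (limma adjusted p = 0.757).

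B2m, the light chain shared by class I molecules, lay between 11.63 and 12.05 in all arrays. Mcl1(L-/-) arrays read 11.84, 12.01, 11.98, 11.92 and 11.97 when fed and 11.82, 11.64, 11.70, 11.68 and 11.63 when fasted. The groups were apart by a small margin, and the fall was 1.19-fold (log2 -0.25, SE 0.08, limma adjusted p = 0.0451). This call was lost under 19 of 29 alternatives, where the highest adjusted p was 0.109. The WT difference was -0.13 (limma adjusted p = 0.459).

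The other class I members were not called for fasting in either genotype. H2-Q1, H2-Q4, H2-Q5, H2-T23, H2-T24, H2-T3 and H2-T-ps had differences of -0.32 to -0.07 in WT and of -0.28 to 0.03 in Mcl1(L-/-) livers. H2-T23 encodes Qa-1, a ligand of receptors on natural killer cells. The 11 genes of the H2-M region and H2-Bl were at or below the median of all values. H2-M3, which presents formylated bacterial peptides, was the brightest of them, with a mean of 3.10. The median fasting difference of the H2-M region was 0.00 in WT and -0.01 in Mcl1(L-/-) livers. H2-Bl measured -0.22 and -0.15, and H2-Ke6 0.03 and 0.16.

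Class II and class I were compared as groups by description, without a test, over the 4 and 17 members with signal. The median fasting difference of class I was -0.31 in WT and -0.22 in Mcl1(L-/-) livers. That of class II was -0.49 in WT and -1.19 in Mcl1(L-/-) livers, and the median over all probe sets was 0.02 and 0.00. Among these members class II thus lay below class I by 0.18 in WT and by 0.97 in Mcl1(L-/-) livers. With the dim members included, the medians of 9 class II and 29 class I members were -0.31 and -0.15 in WT. In Mcl1(L-/-) livers they were -0.48 and -0.14, a smaller distance than among the bright members. In WT H2-Ab1 stood apart within class II, since the other 3 bright class II members had differences of -0.32 to -0.54.

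Each class was also summarised array by array, as the median of its genes' deviations from their own means over the 20 arrays. The class I median was 0.06 to 0.18 in fed WT, -0.29 to -0.12 in fasted WT, 0.14 to 0.23 in fed Mcl1(L-/-) and -0.31 to 0.10 in fasted Mcl1(L-/-) livers. It did not overlap between fed and fasted livers of a genotype. Fasted Mcl1(L-/-) replicates 3 and 4 were the lowest of their group, at -0.31 and -0.22, and the other 3 lay at 0.00 to 0.10. The class II median was -0.10 to 0.43 in fed WT, -0.55 to 0.17 in fasted WT, 0.30 to 0.90 in fed Mcl1(L-/-) and -0.74 to -0.13 in fasted Mcl1(L-/-) livers. It overlapped in WT, where fasted replicate 1 was high, and not in Mcl1(L-/-) livers. The class II median minus the class I median overlapped widely in WT, at -0.17 to 0.32 in fed and -0.28 to 0.35 in fasted arrays. It was 0.12 to 0.72 in fed and -0.77 to 0.09 in fasted Mcl1(L-/-) arrays, with fasted replicate 4 the highest of its group and next to fed replicate 1.

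**Figure D4:**
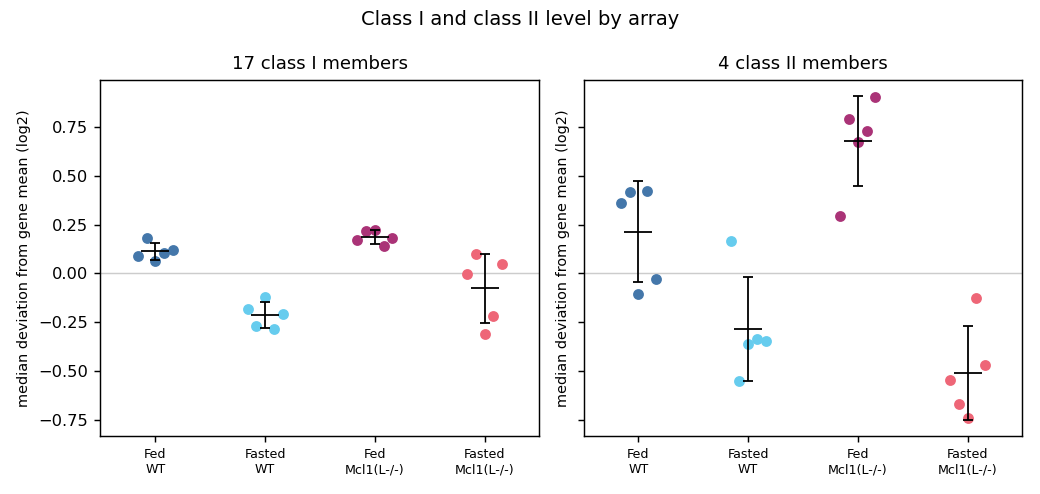
Median log2 deviation of 17 class I members (left) and 4 class II members (right) from each gene's mean over the 20 arrays, by group, with the mean and standard deviation of 5 arrays. Both panels share one scale. Class II spreads from -0.74 in a fasted to 0.90 in a fed Mcl1(L-/-) liver, and class I from -0.31 to 0.23 over all arrays.

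Whether the fasting response differed between genotypes was tested by the interaction, the fasting difference in Mcl1(L-/-) minus that in WT livers. Limma called 0 of the 40 members, against 0.135% of all probe sets, and 4 members, H2-Aa, H2-Eb1, H2-T10 and Ciita, had an unadjusted p under 0.05, all with estimates below 0. The largest estimate was that of H2-Aa, at -1.11 with a 95% interval of -1.65 to -0.56 that is not adjusted for the number of genes (SE 0.26, limma adjusted p = 0.0828). It was called without fed Mcl1(L-/-) replicate 1 (-1.29, adjusted p = 0.0283) and without fasted Mcl1(L-/-) replicates 3 and 4 together (-1.09, adjusted p = 0.0316). Over all probe sets the interaction calls were 30 in the main fit, 21 without that fed array and 765 without those fasted arrays. The last setting thus added calls throughout, while the H2-Aa estimate hardly moved. H2-Eb1 had -0.70 (limma adjusted p = 0.239), H2-DMb1 -0.45 (0.555) and H2-Ab1 -0.22 (0.869). The interval for H2-Ab1, from -0.90 to 0.45, is wide. The other members under 0.05 were Ciita at -0.50 (95% interval -0.89 to -0.11, limma adjusted p = 0.288) and, within class I, H2-T10 at -0.37 (-0.66 to -0.08, limma adjusted p = 0.286). Of other class I genes the interval was -0.41 to 0.20 for H2-Q10, -0.13 to 0.40 for H2-K1 and -0.04 to 0.51 for H2-D1. The class II calls in Mcl1(L-/-) livers that were absent in WT are therefore not shown to differ between the genotypes.

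In fed livers the genotypes were compared without the fast. Limma called 0 of the 40 members, against 0.036% of all probe sets, and the lowest adjusted p of any member was 0.48. At an unadjusted p under 0.05, with no share of all probe sets to set beside it, 3 members passed. These were H2-Aa, H2-DMb1 and H2-Eb1, all higher and all class II, and the class was not tested. H2-Aa was 0.60 higher in Mcl1(L-/-) livers (95% interval 0.21 to 0.98, limma adjusted p = 0.48), and H2-DMb1, H2-Eb1 and H2-Ab1 differed by 0.45, 0.45 and 0.43 (adjusted p = 0.692, 0.626 and 0.83). The arrays of the genotypes overlapped for each of these genes. For class I the intervals were -0.13 to 0.24 for H2-K1, -0.15 to 0.19 for B2m and -0.09 to 0.34 for H2-Q10.

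In fasted livers limma called 1 of the 40 members, H2-D1, higher in Mcl1(L-/-) livers and 0 lower, against 3.32% of all probe sets higher and 1.67% lower. At an unadjusted p under 0.05, 5 members were higher and 2 lower. The fasted WT arrays of H2-D1 lay at 8.12 to 8.39 and the fasted Mcl1(L-/-) arrays at 8.37 to 8.74, which overlapped at Mcl1(L-/-) replicate 3 (log2 0.33, SE 0.10, limma adjusted p = 0.0418). The call was lost under 14 of 29 alternatives, with an adjusted p up to 0.141. H2-Aa measured -0.51 (limma adjusted p = 0.123), H2-Eb1 -0.26, H2-Ab1 0.21 and H2-DMb1 0.00 with a sign that turned with the processing. H2-T-ps, named after its values were seen, measured 0.35 (limma adjusted p = 0.0795) and was called under some alternatives. Fasted Mcl1(L-/-) replicates 3 and 4 bore on this comparison: without both, 5 members were called higher, H2-D1, H2-Q4, H2-Q5, H2-T-ps and Tap1. Calls in either direction over all 22206 probe sets rose as well, from 1109 to 1989, so this rise is not particular to the members.

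Genes that work beside the members were counted from lists of known function. The immunoproteasome, which cuts peptides suited to class I, and its PA28 activator had 5 of 5 genes called lower in WT and 5 of 5 in Mcl1(L-/-) livers. Psmb10 fell by 1.36 on the log2 scale in WT and by 1.73 in Mcl1(L-/-) livers (limma adjusted p = 1.42e-06 and 1.95e-08). Psmb8 fell by 0.71 and 1.26 (0.00243 and 1.24e-06) and Psmb9 by 0.78 and 0.84 (0.00272 and 0.000565). The activator genes Psme1 and Psme2 fell by 0.51 and 0.73 in WT. Their summed linear signal was 1092 to 1269 in fed WT, 654.7 to 879.8 in fasted WT, 1095 to 1239 in fed Mcl1(L-/-) and 560.3 to 731 in fasted Mcl1(L-/-) livers, with no overlap between fed and fasted.

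Class I folding and trimming genes had 0 of 5 called in WT (2 at an unadjusted p under 0.05) and 3 of 5 lower in Mcl1(L-/-) livers. Tapbpl, a peptide editor related to tapasin, fell by 0.64, the chaperone gene Canx by 0.43 and the trimming peptidase gene Erap1 by 0.31 (limma adjusted p = 0.00887, 0.00948 and 0.04). Class I-like genes encoded outside the H2 complex, such as Cd1d1, Mr1 and Fcgrt, had 0 of 7 called by limma in any comparison, with 2 in WT and 0 in Mcl1(L-/-) livers at an unadjusted p under 0.05 for fasting. None of these list genes was called for the interaction or between fed genotypes.

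The endosomal enzymes that prepare class II peptides did not move as one. In WT 2 of 5 were called lower and 1 higher: Ctss, the protease that degrades the invariant chain, fell by 0.60, the thiol reductase gene Ifi30 fell by 0.80, and the cathepsin gene Ctsl rose by 1.06 (limma adjusted p = 0.0052, 0.00285 and 2.53e-05). In Mcl1(L-/-) livers Ctsl rose by 1.59 and Ctsb fell by 0.38 (limma adjusted p = 3.39e-08 and 0.0193). Between fasted genotypes Ctss, Ctsl and Lgmn were called higher in Mcl1(L-/-) livers, by 0.72, 0.61 and 0.60 (limma adjusted p = 0.00332, 0.0158 and 0.012).

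The factors that bind the X and Y boxes had 1 of 7 called lower in WT and 1 lower and 1 higher in Mcl1(L-/-) livers. Nfyb, a subunit of the Y box factor, fell by 0.89 and 0.97 (limma adjusted p = 0.00272 and 0.000492), and Rfxank rose by 0.68 in Mcl1(L-/-) livers (limma adjusted p = 0.00521). Interferon signalling genes that act on MHC transcription had 3 of 13 called lower in WT, which were Tyk2, Jak2 and Irf9 at -0.76, -0.69 and -0.60. In Mcl1(L-/-) livers 5 of 13 were called lower and 2 higher. Stat2 fell by 1.26, Irf9 by 1.16 and Irf2 by 1.11 (limma adjusted p = 0.000105, 2.85e-06 and 0.000822), and the receptor genes Ifngr2 and Ifnar2 rose by 0.51 and 0.42. Between fasted genotypes 1 of 13, Irf9, was lower in Mcl1(L-/-) livers, by 0.55 (limma adjusted p = 0.026).

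Class II genes are expressed by a minority of liver cells, so markers of those cells are given beside them. Kupffer cell markers had 4 of 12 called lower and 0 higher after fasting in WT, of which Cd5l fell by 1.497, Folr2 fell by 1.46 and Vsig4 fell by 0.94 (limma adjusted p = 0.000166, 5.85e-06 and 0.000435). In Mcl1(L-/-) livers 2 of 12 were called lower, Cd5l and Folr2 by 1.20 and 0.87, and Cd163 was called higher by 0.63. The summed linear signal of the 12 markers was 594.9 to 791.4 in fed WT, 349.9 to 448.1 in fasted WT, 628.9 to 842.3 in fed Mcl1(L-/-) and 469.6 to 856.9 in fasted Mcl1(L-/-) livers. It was thus lower without overlap in WT, and overlapped in Mcl1(L-/-) livers, where fasted replicates 4 and 5 were highest. Between fasted genotypes 5 of 12 Kupffer markers were called higher in Mcl1(L-/-) livers, with Vsig4 at 1.22 (limma adjusted p = 0.000146), and Vsig4 was called for the interaction at 1.26 (limma adjusted p = 0.022). The part of these markers in the class II differences was not tested.

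Dendritic cell markers had 0 of 10 called by limma in any comparison, with 2 at an unadjusted p under 0.05 for fasting in WT and 0 in Mcl1(L-/-) livers. Only 4 of the 10 were above the median of all values, and Itgax, Flt3, Xcr1 and Clec9a were not. Their summed linear signal ran from 90.61 to 108.5 over all 20 arrays. B cell markers had 0 of 8 called by limma (1 at an unadjusted p under 0.05 for fasting in each genotype), and T and NK cell markers 0 of 10 (0 in WT and 1 in Mcl1(L-/-) livers). None of the B, T or NK markers, Ms4a1 and Cd3e included, was above the median of all values. Among general leukocyte markers 2 of 6 were called lower in WT, Cd52 and Arhgdib by 0.74 and 0.50 (limma adjusted p = 0.00442 and 0.0268), and 0 in Mcl1(L-/-) livers (3 at an unadjusted p under 0.05).

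**Figure D5:**
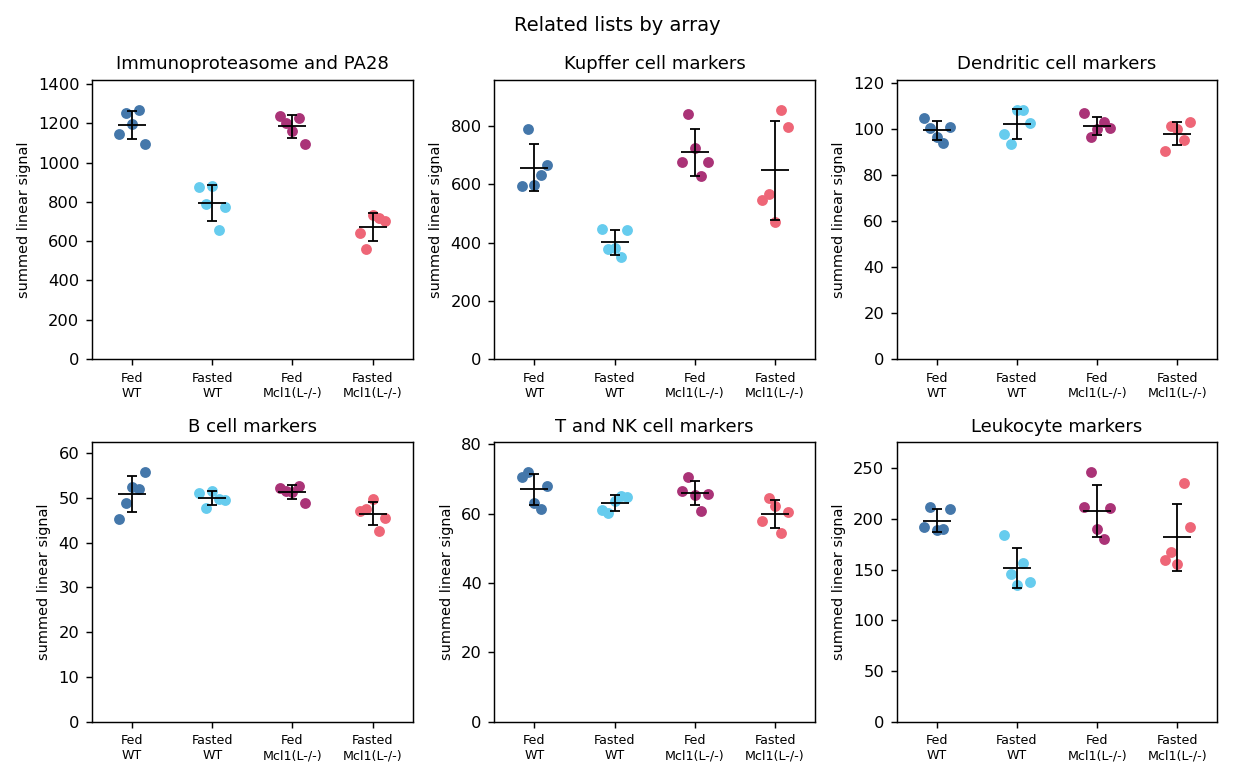
Summed linear signal of genes of the immunoproteasome and PA28 and of markers of 5 kinds of blood or liver immune cells in each of the 20 arrays, by group, with the mean and standard deviation of 5 arrays. Every axis starts at 0. Kupffer cell markers lie at 349.9 to 448.1 in fasted WT, below the other 3 groups, and dendritic cell markers at 90.61 to 108.5 in all groups.

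Markers of other liver cells were measured in the same way. Monocyte and neutrophil markers had 1 of 7 called lower in each genotype, Plac8 by 1.22 in WT and 0.71 in Mcl1(L-/-) livers. Endothelial markers had 1 higher and 1 lower of 8 in WT, Lyve1 at 1.79 and Clec4g at -0.89, and 2 higher in Mcl1(L-/-) livers, Lyve1 at 2.24 and Oit3 at 0.85. Stellate cell markers had 1 of 8 lower in WT, Col3a1 at -1.01, and 2 lower and 2 higher in Mcl1(L-/-) livers, Col3a1 at -1.70, Reln at -0.56, Rgs5 at 0.91 and Dcn at 0.82. Cholangiocyte markers had 0 of 4 called by limma in any comparison (2 at an unadjusted p under 0.05 in WT). Hepatocyte markers such as Alb (-0.03 and 0.02) are defining for the organ, and of 10 1 was called higher in WT, Tat at 0.69, and 2 higher and 1 lower in Mcl1(L-/-) livers, Tat at 0.65, Hnf4a at 0.48 and Ttr at -0.32. The summed hepatocyte signal ran from 36690 to 39890 over all arrays. Plac8 was also called higher in fasted Mcl1(L-/-) than in fasted WT livers, by 0.78 (limma adjusted p = 0.0287). Of the 8 stellate markers 1 was called higher in this comparison (limma adjusted p = 0.00174). Endothelial markers had 0 of 8 called between fasted genotypes and 0 for the interaction. All 8 of their differences lay above 0 in both, with 4 and 5 at an unadjusted p under 0.05.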

How the data were processed

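The authors deposited 1 table of log2 signals for 22206 probe sets on 20 arrays, made by RMA (background correction, quantile normalisation and probe summary) in Partek 7.0, per the submitters' processing notes. The log base is not stated and was taken as log2 from values of 1.34 to 12.56. RMA hides a shift shared by most transcripts and compresses dim genes. The precision is limited by the 5 arrays per group.

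Symbols came from GEO's platform annotation (19572 probe sets had 1 symbol, 2634 none), and chromosomes and promoters from RefSeq (GRCm38.p6). The members and lists were chosen with earlier results of these data known. Of 131 symbols in the 16 other lists 125 were measured. Limma 3.58.1 in R 4.3.3 fitted 1 mean per group to all 20 arrays (lmFit, eBayes), with Benjamini-Hochberg adjustment over all probe sets. SE and 95% intervals come from this model, and it was tested on simulated data. Members named with values were the classical, loading and transactivator genes and up to 10 called members per comparison, and from each list up to 3 called genes per direction. List signals are sums of 2 to the power of the log2 values. Same-numbered arrays of different groups did not deviate together (correlations from -0.19 to 0.17), so replicate numbers were not used as pairs.

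Alternatives were 2 rescalings, 2 kinds of moderation, a filter on dim probe sets, array weights, fits on the compared groups, a replicate block, leaving out each array and, chosen after seeing the data, leaving out fasted Mcl1(L-/-) replicates 3 and 4 together. Figures were drawn with matplotlib 3.10.9.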

Additional observations from a re-analysis of the deposited data

How the results depend on the processing

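The falls of H2-Q10, H2-T10, H2-T22 and H2-Ab1 in both genotypes, and of H2-Aa, H2-Eb1 and H2-DMb1 in Mcl1(L-/-) livers, kept their direction and their call under all 29 alternatives. Among the bright members, the median of class II minus that of class I was positive between fed genotypes and negative in the other 4 comparisons. It kept its sign under these alternatives. It moved by less than the largest SD of the class difference among the arrays of a compared group. That SD was 0.25 in fasted WT and 0.32 in fasted Mcl1(L-/-) livers. The WT fasting medians were -0.49 for class II and -0.31 for class I, so this limit is loose in WT. Members called for fasting in WT, 8, ranged from 5 to 8 when 1 array was left out. Leaving out fed WT replicate 2, 3 or 5, or replicate 2 or 4 of fasted WT, gave 5. For fasting in Mcl1(L-/-) livers the count, 11, ranged from 8 to 11 when 1 array was left out. It was 8 without fed Mcl1(L-/-) replicate 3 or fasted Mcl1(L-/-) replicate 5, with median centring, and without fasted Mcl1(L-/-) replicates 3 and 4 together. Members called between fasted genotypes, 1, were 0 with quantile normalisation, array weights or the compared groups only, 2 with median centring, no moderation or the filter on dim probe sets, 5 without fasted Mcl1(L-/-) replicates 3 and 4, and 0 to 2 when 1 array was left out. Members called for the interaction, 0, ranged from 0 to 1 when 1 array was left out and were 1 without replicates 3 and 4. Without both of these, calls over all probe sets rose too, from 1109 to 1989 between fasted genotypes and from 30 to 765 for the interaction. With the replicate block the members called were 6 for fasting in WT, 10 in Mcl1(L-/-) livers and 0 in each of the other comparisons. The numbers do not pair the arrays: 3 of 20 arrays correlated best with their own number.

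Between fasted genotypes H2-DMb1 changed sign from 0.00 to 0.002 with quantile normalisation, 0.033 with median centring and 0.012 with array weights, and ranged from -0.15 to 0.14 when 1 array was left out. The interaction of H2-Ab1 ranged from -0.36 to 0.001 and the WT difference of Tap2 from -0.055 to 0.15 when 1 array was left out. The causes were not tested. No member had several probe sets, so averaging probe sets could not be run, and the filter removes dim members. Neither rescaling moved the median of all probe sets by over 0.1. Over all probe sets the median SE was 0.14 for a pairwise difference and 0.19 for the interaction, so small differences may have been missed. Members with a smaller SE could be called at smaller differences, such as B2m in Mcl1(L-/-) livers at -0.25 (SE 0.08).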
